A study of Mus musculus with 6 samples.

Results

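The factors that start, extend and end protein synthesis were followed in Neuro-2a cells, a mouse neuroblastoma line, on 6 two-colour cDNA arrays. The genes taken were those whose symbol in the probe annotation begins with Eif1 to Eif6 or Eef1, without the Eif2ak kinases and Eef1a1, together with Pabpc1, Etf1 and Gspt1. This gave 48 of the 6788 genes that carry 1 symbol, measured by 98 clones and 196 spots. 1 further clone, shared by Eif1a and a second symbol, was left out. On each array, total RNA of cells transfected for 60 h with a GFP-tagged human TBP that carries 59 CAG repeats (59Q) met total RNA of cells transfected with the GFP vector pEGFPN3 (N3). All groups therefore carried GFP and the transfection reagent. The transfection was transient, the cells kept their own mouse TBP, and the arrays hold no TBP with a shorter repeat, so the repeat and the added TBP cannot be told apart.

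Protein synthesis begins when eIF2, holding GTP and the initiator tRNA, settles on the small ribosomal subunit beside eIF1, eIF1A and the large scaffold eIF3. The eIF4 factors bind the capped end of the mRNA, unwind it and join it to poly(A)-binding protein, after which the loaded subunit scans for the start codon. eIF5 and eIF5B then trigger GTP hydrolysis and subunit joining, the eEF1 factors bring aminoacyl-tRNAs to the elongating ribosome, and release factors end the chain. Control of eIF2 and of the cap-binding step sets how much protein cells make under stress, and in neurons part of this synthesis runs close to synapses.

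The value of each spot is a Z-ratio, a score with an SD of 1 on every array and no fold scale. RNA of 59Q cells carried Cy5 on 4 arrays (replicates 1, 3, 4 and 6) and Cy3 on the other 2 (replicates 2 and 5). Which way each ratio runs is not stated. The values were first read as deposited, with a Z-ratio above 0 taken as higher in 59Q cells because the methods name 59Q as treated, and then with replicates 2 and 5 turned in sign, as Cy5 over Cy3. Each main result is given both ways. Values of single arrays are listed as replicates 1, 3, 4 and 6 and then 2 and 5. A dye coefficient was also fitted, the distance of the mean of the Cy5 arrays from the midpoint between the means of both dye orientations. As deposited it measures how far a gene follows the dye. Read as Cy5 over Cy3, the same quantity is the difference between 59Q and N3 cells with the dye orientations weighted equally. From these arrays the 2 readings cannot be told apart. In RNA of whole cultures, fewer cells making a transcript and less of it per cell cannot be told apart either. Duplicate spots of the member clones correlated at 0.670 to 0.951 on the 6 arrays, and their median absolute difference lay between 0.0969 and 0.330.

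TBP binds the TATA box, so the stretch ahead of each start was read from the RefSeq table of assembly GRCm38.p6. The table held 36 of the 48 genes with 48 windows of 250 bases before to 50 bases after the start. TATAAA was found on the sense strand of 2 of the 48 windows (4.17%), against 8.32% of all 32851 windows, and TATATA, counted separately, in 1 (2.08%), against 5.67%. The windows with TATAAA belonged to Eif3b, 177 bases before the start, and Eif3f, 61 bases before it, and that with TATATA to Eif2s3y, 195 bases before it. These letters are a description of the window and not a binding site. The 250 bases before the start follow in 5′ to 3′ direction, with TATAAA in capitals, for Eif3f (chr7:108934165-108934414, plus strand) and Eif3b (chr5:140419055-140419304, plus strand) because they hold it. Those of Eef1b2 (chr1:63176581-63176830, plus strand), Eif4a1 (chr11:69672424-69672673, minus strand) and Eif3m (chr2:105017028-105017277, minus strand) hold no TATAAA. They are shown because Eef1b2 and Eif4a1 had the smallest unadjusted p of the members with a positive and a negative dye coefficient, and Eif3m the smallest p of the mean as deposited.
Eif3f: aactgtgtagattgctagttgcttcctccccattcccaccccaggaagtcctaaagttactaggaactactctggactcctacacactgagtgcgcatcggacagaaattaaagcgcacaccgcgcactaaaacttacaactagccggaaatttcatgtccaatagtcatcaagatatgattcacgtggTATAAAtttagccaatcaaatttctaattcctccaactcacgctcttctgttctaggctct
Eif3b: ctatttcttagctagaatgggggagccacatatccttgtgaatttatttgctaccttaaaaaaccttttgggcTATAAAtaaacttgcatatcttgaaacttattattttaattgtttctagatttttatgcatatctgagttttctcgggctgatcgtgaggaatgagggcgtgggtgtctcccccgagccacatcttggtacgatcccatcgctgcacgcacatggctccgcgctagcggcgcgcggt
Eef1b2: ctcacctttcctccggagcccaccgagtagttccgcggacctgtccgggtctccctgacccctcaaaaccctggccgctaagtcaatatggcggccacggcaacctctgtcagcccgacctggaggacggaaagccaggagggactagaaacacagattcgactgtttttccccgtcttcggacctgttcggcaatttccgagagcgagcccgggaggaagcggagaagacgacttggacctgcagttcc
Eif4a1: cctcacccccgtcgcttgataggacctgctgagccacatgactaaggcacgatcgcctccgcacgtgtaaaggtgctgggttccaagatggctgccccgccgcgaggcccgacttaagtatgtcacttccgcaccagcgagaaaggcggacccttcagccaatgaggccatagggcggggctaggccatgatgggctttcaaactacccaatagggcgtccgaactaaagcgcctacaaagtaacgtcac
Eif3m: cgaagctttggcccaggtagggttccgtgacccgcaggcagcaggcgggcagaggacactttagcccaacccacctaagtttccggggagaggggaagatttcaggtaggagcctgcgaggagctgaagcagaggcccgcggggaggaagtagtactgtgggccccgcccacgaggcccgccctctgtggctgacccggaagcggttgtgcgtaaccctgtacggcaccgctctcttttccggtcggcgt

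As deposited, no translation factor passed the test between 59Q and N3 cells, and the factors lay on balance slightly below 0. Of 47 genes measured on at least 4 arrays, 0 were higher and 0 were lower at a limma adjusted p under 0.05 after Benjamini-Hochberg over 6463 genes, where the share called over all genes was also 0% in each direction. The smallest adjusted p was 0.999. At an unadjusted p under 0.05 stood 1 member, Eif3m, against 2.61% of all genes. The mean was above 0 for 15 members (31.9%), against 43.1% of all genes, and below 0 for 32. The median was -0.0912, against -0.0449 over all genes. Without replicate 6, 23 members were above 0 and the median was -0.00227, and without replicate 5, 9 were above 0. The number with an unadjusted p under 0.05 was 0 without replicate 1 or replicate 6, 2 without replicate 3, 3 without replicate 5 and 4 without replicate 2.

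Read as Cy5 over Cy3, the factors leaned more clearly to the side of N3 cells, again with no call. The mean was below 0 for 42 of 47 members, against 4227 of all 6463 genes tested. The median was -0.353, against -0.160 over all genes. At the adjusted threshold 0 members were higher (0.263% of all genes) and 0 were lower (0.0155%). At an unadjusted p under 0.05, 12 members were lower, against 13.4% of all genes, and 2 were higher, against 6.42%. The 12 were Eif1b, Eif2s2, Eif2s3x, Eif3k, Eif3l, Eif3m, Eif4a1, Eif4e, Eif4g2, Eif5, Eif5a2 and Gspt1, and the 2 were the elongation factor genes Eef1b2 and Eef1g.

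The dye coefficient was below 0 for 41 of the 47 members (87.2%) against 65.0% of all genes, and its median was -0.308 against -0.159. At the adjusted threshold 0 members were called, as were 0% of all genes, and the smallest adjusted p over all genes was 0.134. At an unadjusted p under 0.05 were 5 members with a negative coefficient, Eif4a1, Eif3m, Eif5, Eif2s3x and Eif4e, against 10.2% of all genes, and 2 with a positive one, Eef1b2 and Eef1g, against 5.91%. No test was made of the members as a list, so these shares only describe the arrays.

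**Figure D1:**
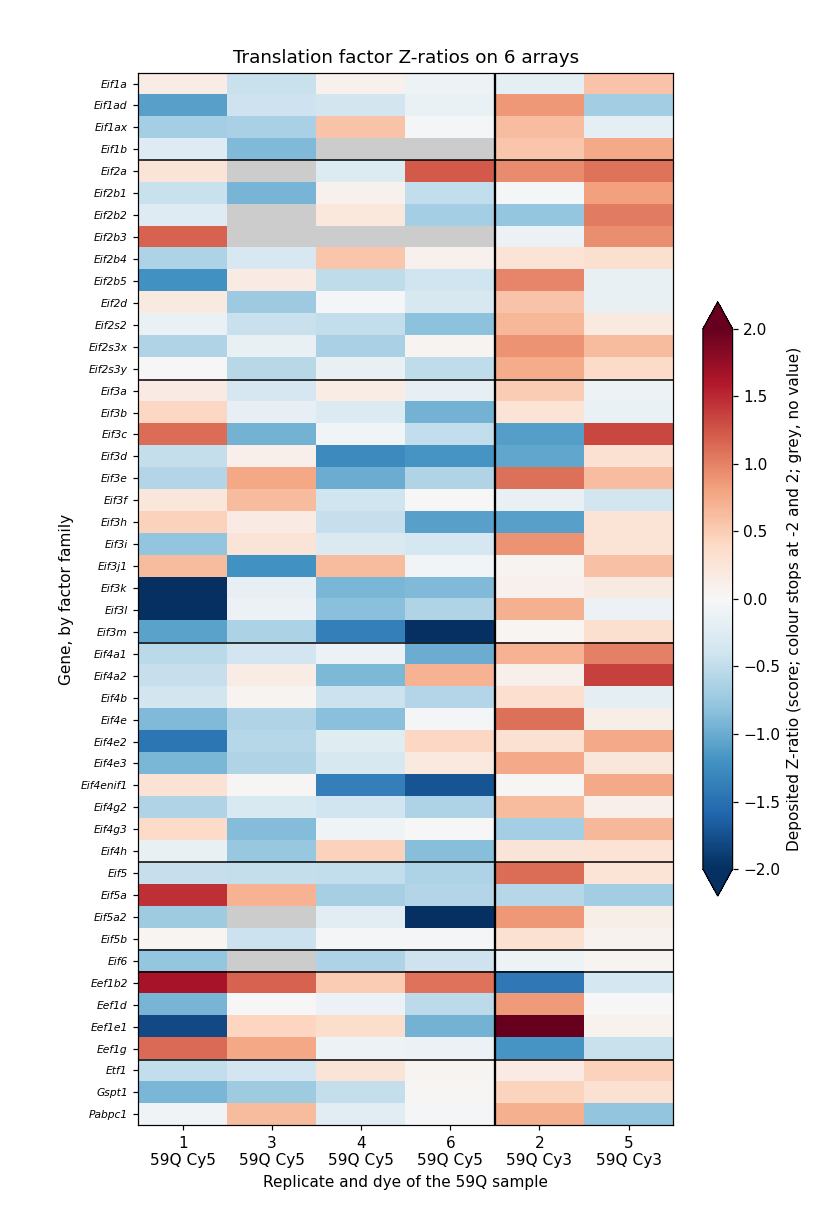
Deposited Z-ratio (score, colour) of the 48 translation factor genes (rows, by family) on the 6 arrays (columns, by the dye of the 59Q sample), with grey for no value and colour stopping at -2 and 2. The genes above 0 (red) number 17 of 48, 15 of 43, 11 of 46 and 9 of 46 on replicates 1, 3, 4 and 6 (Cy5). On the Cy3 arrays they number 35 and 34 of 48, but few genes keep 1 colour within each orientation. Over all genes, 2821 of 6788, 1878 of 5070, 2590 of 6100 and 3019 of 6252 are above 0 on these Cy5 arrays. On the Cy3 arrays 3873 of 6785 and 4238 of 6652 are.

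The eIF2 group holds the members whose symbols begin with Eif2, and its 10 genes averaged close to 0 as deposited. The group takes in subunits of eIF2, those of its exchange factor eIF2B, and Eif2a and Eif2d. Its mean Z-ratio was -0.163, -0.422, -0.140 and -0.203 with 59Q in Cy5 and 0.415 and 0.512 with 59Q in Cy3, which gave -0.000248 ± 0.374 (SD, n = 6). The arrays did not overlap by dye: all 4 with 59Q in Cy5 were below both with 59Q in Cy3. The mean of all genes had the same order. It was -0.149, -0.0972, -0.100 and -0.0118 with 59Q in Cy5 and 0.0661 and 0.0979 with 59Q in Cy3. The eIF2 mean changed sign with the array left out, from -0.103 without replicate 5 to 0.0841 without replicate 3. With replicates 2 and 5 turned it was -0.309 ± 0.159, and the dye coefficient of the group was -0.348, against -0.0858 for the mean of all genes. All 9 genes tested had a coefficient below 0, from -0.554 to -0.184.

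Among the subunits of eIF2 itself, Eif2s2 codes for the beta subunit. Its Z-ratios were -0.134, -0.438, -0.491 and -0.817 with 59Q in Cy5 and 0.662 and 0.201 with 59Q in Cy3. Every Cy5 array lay below 0 and both Cy3 arrays above it. The mean was -0.170 ± 0.534 (SD, n = 6) as deposited and -0.457 ± 0.262 as Cy5 over Cy3, with limma adjusted p of 0.999 and 0.208. Eif2s3x and Eif2s3y are the X-linked and Y-linked genes of the gamma subunit, which binds GTP and tRNA. For Eif2s3x the values were -0.607, -0.146, -0.654 and 0.0496 with 59Q in Cy5 and 0.901 and 0.637 with 59Q in Cy3. For Eif2s3y they were 0.0130, -0.552, -0.147 and -0.507 with 59Q in Cy5 and 0.749 and 0.375 with 59Q in Cy3. In both genes all arrays with 59Q in Cy5 lay below both with 59Q in Cy3, although a Cy5 array of each was above 0. Their dye coefficients were -0.554 ± 0.210 (SE) and -0.430 ± 0.205 (SE), with limma adjusted p of 0.276 and 0.331. The X and Y copies are close in sequence, and whether their cDNAs share signal on a spot was not tested.

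eIF2B, the exchange factor that recharges eIF2 with GTP, is made of 5 subunits coded by Eif2b1 to Eif2b5. Their means as deposited were small, at -0.167 for Eif2b1, -0.0912 for Eif2b2, 0.0503 for Eif2b4 and -0.185 for Eif2b5, with SDs of 0.439 to 0.741 over 5 or 6 arrays. Dye coefficients ran from -0.449 for Eif2b5, the catalytic subunit, to -0.184 for Eif2b4. For Eif2b5 the arrays gave -1.20, 0.168, -0.507 and -0.394 with 59Q in Cy5 and 0.975 and -0.149 with 59Q in Cy3. Here the dye orientations overlapped, replicate 3 being above replicate 5. Eif2b3 had a value on 3 arrays only, 1.17 on replicate 1, -0.115 on replicate 2 and 0.922 on replicate 5, and was not tested.

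Eif2a and Eif2d code for initiator tRNA binding proteins outside the eIF2 trimer. Eif2a gave 0.260, -0.280 and 1.23 with 59Q in Cy5 (replicates 1, 4 and 6) and 0.950 and 1.09 with 59Q in Cy3. It was above 0 on 4 of 5 arrays, with a mean of 0.651 ± 0.641 (SD, n = 5), the highest of the tested members. Its unadjusted limma p was 0.0520 and its adjusted p 0.999. The mean became -0.166 ± 0.952 as Cy5 over Cy3, so the direction of Eif2a depended on the reading. Eif2d had means of -0.0787 ± 0.441 (SD, n = 6) and -0.223 ± 0.377 in the 2 readings.

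eIF3 is the scaffold that holds the other factors on the small subunit, and as deposited it had the lowest group mean of the 3 large families, while read as Cy5 over Cy3 that of eIF4 was lower. Its mean Z-ratio was -0.473, -0.138, -0.506 and -0.698 with 59Q in Cy5 and 0.0234 and 0.265 with 59Q in Cy3, which gave -0.254 ± 0.366 (SD, n = 6). Of its 12 genes, 0 were above 0 on replicate 6 and 2 on replicate 4, but 8 on each Cy3 array. Over all genes these counts were 3019 of 6252 and 2590 of 6100, and on the Cy3 arrays 3873 of 6785 and 4238 of 6652. Leaving out 1 replicate gave eIF3 means from -0.358, without replicate 5, to -0.166, without replicate 6. The mean as Cy5 over Cy3 was -0.351 ± 0.253 and the dye coefficient -0.299. All arrays with 59Q in Cy5 were again below both with 59Q in Cy3, as they were in the mean of all genes. For eIF3 the gap between replicate 3 and replicate 2 was small, at -0.138 against 0.0234.

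As deposited, the lowest means of the family were those of Eif3m, Eif3k, Eif3l and Eif3d. Read as Cy5 over Cy3, the first 3 of these were again the lowest, and Eif3e and Eif3i lay below Eif3d. Eif3m, a subunit of the structural core, had the smallest unadjusted p of all members as deposited. Its Z-ratios were -1.07, -0.631, -1.36 and -2.05 with 59Q in Cy5 and 0.0319 and 0.314 with 59Q in Cy3. They were below 0 on all Cy5 arrays and slightly above 0 on both Cy3 arrays. The mean was -0.794 ± 0.884 (SD, n = 6) with a limma p of 0.0295 before and 0.999 after adjustment, and the exact 2-sided sign-flip p was 0.125, where 0.03125 is the smallest that 6 arrays allow. Without replicate 6, the lowest array, the mean was -0.543. As Cy5 over Cy3 it was -0.909 ± 0.738, with a limma adjusted p of 0.153. The 2 clones of Eif3m had dye coefficients of -0.727 and -0.723, but neither clone was above 0 on both Cy3 arrays. On replicates 2 and 5 the first gave -0.602 and 0.924, and the second 0.666 and -0.296.

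Eif3k and Eif3l, subunits that sit side by side in the core, each had 1 array far below the rest. For Eif3k the values were -2.93, -0.168, -0.915 and -0.877 with 59Q in Cy5 and 0.0837 and 0.175 with 59Q in Cy3. For Eif3l they were -2.84, -0.109, -0.838 and -0.596 with 59Q in Cy5 and 0.706 and -0.112 with 59Q in Cy3. Replicate 1 was the lowest in both genes, and each gene rests on 1 clone. The mean of Eif3k was -0.773 ± 1.16 (SD, n = 6), and without replicate 1 it was -0.341. As Cy5 over Cy3 it was -0.859 ± 1.08. The mean of Eif3l was -0.631 ± 1.20 (SD, n = 6), and without replicate 1 it was -0.190. As Cy5 over Cy3 it was -0.829 ± 1.05. Eif3d, a subunit that can itself bind capped mRNA, had no order by dye. It gave -0.479, 0.104, -1.27 and -1.18 with 59Q in Cy5 and -1.03 and 0.311 with 59Q in Cy3. It was below 0 on 4 of 6 arrays, Cy5 and Cy3 alike, with a mean of -0.592 ± 0.680 (SD, n = 6), an unadjusted limma p of 0.0554 and a dye coefficient of -0.173 ± 0.285 (SE). As Cy5 over Cy3 its mean was -0.351 ± 0.857.

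The remaining eIF3 genes were closer to 0 or irregular. Eif3a codes for the largest subunit, and its mean was 0.0364 ± 0.301 (SD, n = 6) over 8 clones. Eif3b and Eif3i, which sit in the peripheral module, had means of -0.138 ± 0.477 (SD, n = 6) and 0.000368 ± 0.596 (SD, n = 6), and the dye coefficients were -0.159 and -0.440. Eif3c, beside Eif3a in the core, ranged from -1.11 to 1.34 with no order by dye. Eif3e, another core subunit, gave -0.588, 0.774, -0.985 and -0.599 with 59Q in Cy5 and 1.10 and 0.613 with 59Q in Cy3. Its dye coefficient was -0.603 ± 0.276 (SE), and replicate 3 lay above replicate 5, so the orientations overlapped. Eif3f and Eif3h code for the paired subunits with an MPN domain. They were the only tested members of the 3 large families with coefficients above 0. These were 0.184 ± 0.219 (SE) and 0.0876 ± 0.292 (SE), both smaller than their SE. The clones of Eif3h had opposite signs, with coefficients of 0.687 and -0.512. Eif3j1, the loosely bound subunit, was at 0.105 ± 0.715 (SD, n = 6), with replicate 3 at -1.21 and the other arrays from -0.0475 to 0.632.

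The eIF4 factors bind and unwind the capped mRNA, and read as Cy5 over Cy3 they had the smallest SD over arrays of the 3 large families. Their mean Z-ratio was -0.469, -0.389, -0.424 and -0.350 with 59Q in Cy5 and 0.354 and 0.510 with 59Q in Cy3, which gave -0.128 ± 0.438 (SD, n = 6). Of the 10 genes, 1 to 3 were above 0 on each Cy5 array and 9 on each Cy3 array. The share of all genes above 0 was lowest on replicate 3 (1878 of 5070) and highest on replicate 5 (4238 of 6652). Without replicate 1 the eIF4 mean was -0.0599, and without replicates 3, 4 or 6 it was -0.0760, -0.0690 or -0.0837. Without replicate 2 it was -0.225 and without replicate 5 -0.256. The SD over arrays fell from 0.438 as deposited to 0.0642 as Cy5 over Cy3, where the mean was -0.416. It also fell for the mean of all genes, from 0.0996 to 0.0456. For eIF2 it went from 0.374 to 0.159 and for eIF3 from 0.366 to 0.253. The dye coefficient of eIF4 was -0.420, and -0.341 when each array was centred on its median. All 10 coefficients were below 0, from -0.681 to -0.0707.

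**Figure D2:**
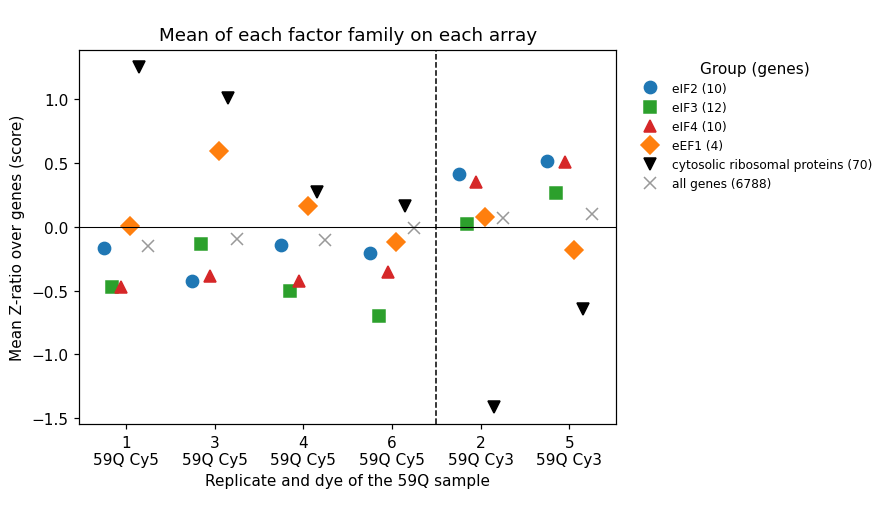
Mean Z-ratio (score) of the eIF2, eIF3, eIF4 and eEF1 genes, of 70 cytosolic ribosomal protein genes and of all 6788 genes on each array, with the dye of the 59Q sample under the axis and a dashed line between the orientations. The eIF2, eIF3 and eIF4 means lie below 0 on the 4 Cy5 arrays and above 0 on the 2 Cy3 arrays. Those of all genes do so too. The ribosomal protein means lie the other way, and those of eEF1 overlap.

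Eif4a1 codes for the helicase that opens structure ahead of the start codon, and had the smallest dye p of the initiation factors. Its Z-ratios were -0.532, -0.384, -0.125 and -0.990 with 59Q in Cy5 and 0.698 and 1.01 with 59Q in Cy3. All Cy5 arrays lay below 0 and both Cy3 arrays above 0. The mean was -0.0537 ± 0.764 (SD, n = 6) as deposited and -0.623 ± 0.348 as Cy5 over Cy3, with limma adjusted p of 0.999 and 0.157. The dye coefficient was -0.681 ± 0.213 (SE), with a limma adjusted p of 0.246. The clones of Eif4a1 had coefficients of -0.436 and -0.926, and neither was below 0 on all Cy5 arrays. The first was at 0.268 on replicate 4 and the second at 0.0377 on replicate 3. The paralogue Eif4a2 gave -0.459, 0.151, -0.902 and 0.692 with 59Q in Cy5 and 0.108 and 1.37 with 59Q in Cy3. In Eif4a2 the orientations overlapped, and its coefficient was -0.433 ± 0.288 (SE). Eif4b and Eif4h assist this helicase, and had coefficients of -0.206 and -0.296.

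Eif4e, the cap-binding protein on which growth signals act, showed the same order as Eif4a1. It gave -0.882, -0.609, -0.829 and -0.0312 with 59Q in Cy5 and 1.10 and 0.111 with 59Q in Cy3. Replicate 6 was close to 0, and the other Cy5 arrays were clearly below it. The mean was -0.190 ± 0.754 (SD, n = 6) as deposited and -0.594 ± 0.435 as Cy5 over Cy3, with a limma adjusted p of 0.180 in the second reading. All 4 clones of Eif4e had a dye coefficient below 0, from -0.828 to -0.255. None of them was below 0 on all Cy5 arrays and above 0 on both Cy3 arrays. The relatives Eif4e2 and Eif4e3 had coefficients of -0.496 ± 0.275 (SE) and -0.452 ± 0.231 (SE). Eif4enif1, which carries eIF4E into the nucleus, gave 0.295, 0.0194, -1.37 and -1.73 with 59Q in Cy5 and 0.0283 and 0.751 with 59Q in Cy3. Replicates 4 and 6 were far below the rest, and among its 3 clones the coefficient ranged from -1.24 to -0.311.

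The scaffold genes differed in spread. Eif4g2 codes for a relative of eIF4G that lacks the part binding eIF4E. Its values were -0.604, -0.309, -0.396 and -0.614 with 59Q in Cy5 and 0.626 and 0.109 with 59Q in Cy3. The Cy5 arrays were all below 0 and the Cy3 arrays above it. The mean was -0.198 ± 0.482 (SD, n = 6) as deposited and -0.443 ± 0.210 as Cy5 over Cy3, and 4 of its 5 clones had a coefficient below 0. No single clone was below 0 on all Cy5 arrays and above 0 on both Cy3 arrays. Eif4g3, a full-length scaffold, had the coefficient nearest to 0 of the eIF4 genes, -0.0707 ± 0.269 (SE), with replicate 2 at -0.677 and replicate 5 at 0.667.

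Beyond these families, Eif5 and Eif1b had negative dye coefficients, Eif5a had a positive one, and Eif5a2 had 1 array far below the rest. Eif5 codes for the protein that makes eIF2 hydrolyse GTP at the start codon. Its Z-ratios were -0.455, -0.469, -0.488 and -0.613 with 59Q in Cy5 and 1.12 and 0.281 with 59Q in Cy3. The Cy5 arrays lay within a narrow range below 0, and replicate 2 was well above 0. The mean was -0.104 ± 0.679 (SD, n = 6) as deposited and -0.571 ± 0.289 as Cy5 over Cy3, with a limma adjusted p of 0.159. All 3 clones had a coefficient below 0, from -0.856 to -0.485. Eif1b, a paralogue of the start-codon factor eIF1, was measured on 4 arrays, with -0.261 and -0.885 in Cy5 and 0.559 and 0.762 in Cy3. Eif5a, named after its values were seen, codes for the hypusine-bearing factor that eases peptide bond formation. It gave 1.46, 0.694, -0.666 and -0.582 with 59Q in Cy5 and -0.563 and -0.696 with 59Q in Cy3. Its dye coefficient was 0.428 ± 0.321 (SE), and the orientations overlapped. Eif5a2, a variant of Eif5a, was at -3.32 on replicate 6 and between -0.715 and 0.874 on the other 4 arrays that measured it.

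The eEF1 genes did not share a sign. Eef1b2 codes for the beta subunit that reloads the elongation factor eEF1A with GTP. Its Z-ratios were 1.65, 1.18, 0.515 and 1.08 with 59Q in Cy5 and -1.44 and -0.352 with 59Q in Cy3. All Cy5 arrays were above 0 and both Cy3 arrays below it. The mean was 0.441 ± 1.15 (SD, n = 6) as deposited and 1.04 ± 0.511 as Cy5 over Cy3, with limma adjusted p of 0.999 and 0.0841. The dye coefficient was 1.00 ± 0.249 (SE), the highest of the members, with a limma adjusted p of 0.193. Its 2 clones differed widely, with coefficients of 0.0941 and 1.91.

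Eef1g codes for the gamma subunit that anchors the exchange complex. It gave 1.13, 0.770, -0.100 and -0.110 with 59Q in Cy5 and -1.17 and -0.448 with 59Q in Cy3. All Cy5 arrays were above both Cy3 arrays, although replicates 4 and 6 were below 0. The dye coefficient was 0.616 ± 0.257 (SE), with a limma adjusted p of 0.297, and 5 of its 6 clones were above 0. Eef1d, the delta subunit, ran the other way, with a coefficient of -0.406 ± 0.234 (SE). Eef1e1, which codes for a protein of the tRNA synthetase complex, gave -1.81, 0.436, 0.355 and -0.938 with 59Q in Cy5 and 2.06 and 0.0677 with 59Q in Cy3. Its highest value and its lowest came from replicates 2 and 1, and the orientations overlapped.

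**Figure D3:**
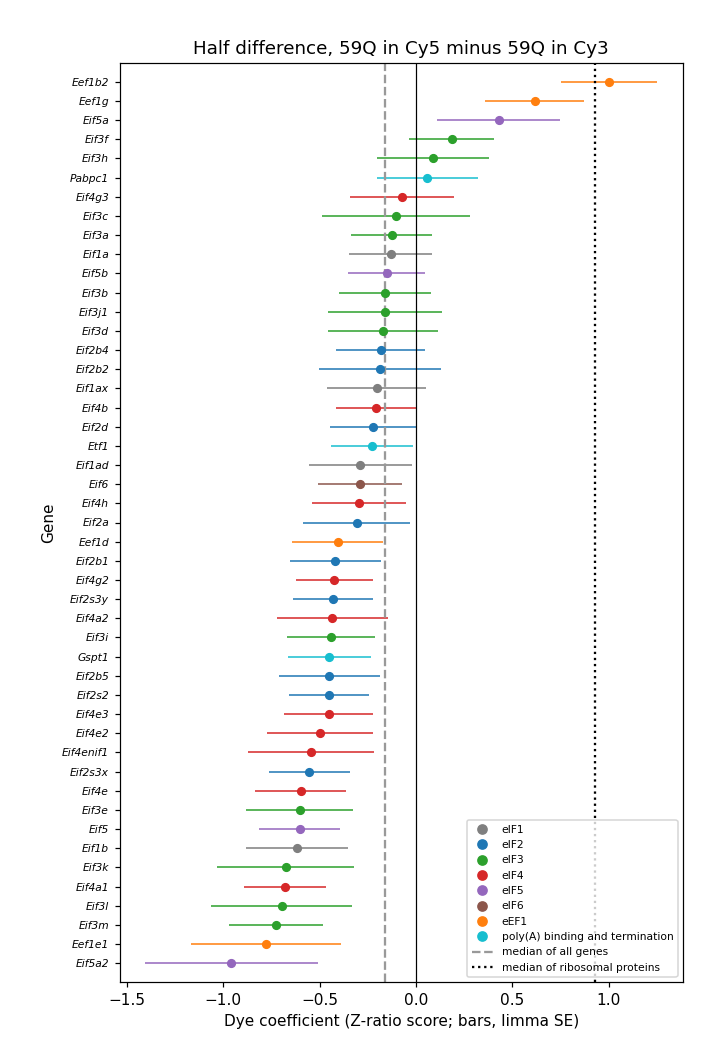
Dye coefficient (score) of the 47 tested genes, coloured by family, with bars for the limma SE, a dashed line at the median of all genes and a dotted line at that of the ribosomal proteins. The coefficients run from -0.956 for Eif5a2 to 1.00 for Eef1b2, and 41 of 47 lie below 0.

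Pabpc1, Etf1 and Gspt1 work at the ends of the message. Pabpc1 codes for the main cytoplasmic poly(A)-binding protein. Its values were -0.0706, 0.633, -0.222 and -0.0158 with 59Q in Cy5 and 0.708 and -0.783 with 59Q in Cy3. No order by dye was seen, and the mean was 0.0417 ± 0.558 (SD, n = 6). Its 3 clones disagreed, with dye coefficients of -0.370, 1.24 and -0.693. Etf1, the factor that recognises stop codons, had a mean of 0.00867 ± 0.375 (SD, n = 6) and a coefficient of -0.228 ± 0.211 (SE). Gspt1 codes for its GTPase partner. For Gspt1 the values were -0.919, -0.718, -0.477 and 0.0215 with 59Q in Cy5 and 0.447 and 0.301 with 59Q in Cy3. All Cy5 arrays lay below both Cy3 arrays, and the coefficient was -0.449 ± 0.215 (SE).

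The order of the arrays was then counted over the 42 members measured on all 6. In 13 (31.0%), all 4 arrays with 59Q in Cy5 were below both with 59Q in Cy3, against 24.4% of all genes. These were Eif2s2, Eif2s3x, Eif2s3y, Eif3i, Eif3k, Eif3m, Eif4a1, Eif4e, Eif4e3, Eif4g2, Eif5, Eif5b and Gspt1, where Eif5b, a GTPase of subunit joining, was named after its values were seen. In 2 (4.76%), Eef1b2 and Eef1g, all Cy5 arrays were above both Cy3 arrays, against 8.42% of all genes. After centring each array on its median the counts were 9 and 3, against 17.4% and 10.5% of all genes. The shares of the members with either order were near those of all genes. Opposite signs by dye were rarer: 7 members (16.7%) were below 0 on all Cy5 arrays and above 0 on both Cy3 arrays, against 11.2% of all genes, and 1 (2.38%), Eef1b2, was the reverse, against 5.01%. After centring these counts were 3 (7.14%) and 1 (2.38%), against 7.29% and 6.13% of all genes.

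The methods took a Z-ratio of 1.96 in size as significant, and when it was set here against single arrays few values passed. Of 279 member values, 1 was at or above it, Eef1e1 on replicate 2, against 1.21% over all genes and arrays. At or below the negative threshold were 4, Eif3k and Eif3l on replicate 1 and Eif3m and Eif5a2 on replicate 6, against 1.56%. No member passed on more than 1 array.

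Single clones showed how far the gene means rest on their probes. Of 26 genes with several clones, 14 had dye coefficients of 1 sign in all of them, and 76 of 96 clones with a fit were below 0. The same shares were not counted over all clones. Over all genes 65.0% of dye coefficients were below 0. The widest range was that of Eif3a, whose 8 clones ran from -0.609 to 1.34. The clone at 1.34 gave 3.02, 0.955, 1.25 and -0.0228 on replicates 1, 3, 4 and 6, and -2.75 and 0.0018 on replicates 2 and 5, while 6 of the other 7 had a coefficient below 0. When clones were tested as Cy5 over Cy3, 2 member clones were higher at a limma adjusted p under 0.05, against 1.89% of all clones, and 0 were lower, against 0.0486%. They were the second clone of Eef1b2, at a mean of 1.92 with an adjusted p of 0.0348, and the clone of Pabpc1 with the positive coefficient, at 1.17 with an adjusted p of 0.0498. As deposited, 0 member clones were called and 1 had an unadjusted p under 0.05.

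**Figure D4:**
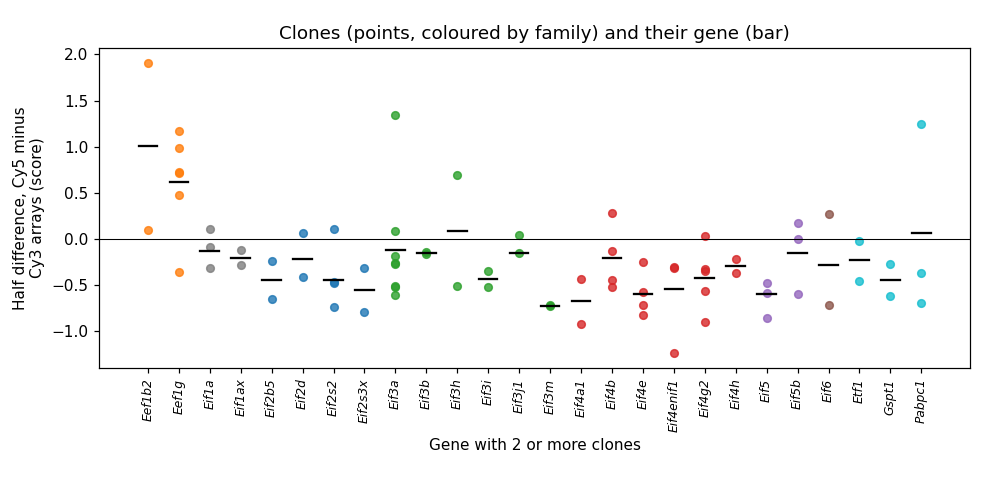
Dye coefficient (score) of each clone (points, coloured by family) of the 26 genes with several clones, with a bar at the value of the gene. The clones of Eif3m lie at the same height, those of Eif4e and Eif5 are all below 0, and those of Eef1b2, Eef1g, Eif3a, Eif3h and Pabpc1 are spread over more than 1 unit.

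Other genes of protein synthesis were set beside the members. Of 34 regulators of initiation and remaining elongation factors, 21 were on the arrays. As deposited 7 (33.3%) were above 0, against 43.1% of all genes, and 14 below, with 0 called. Their dye coefficients were above 0 in 9 and below 0 in 12 (57.1%), against 65.0% of all genes below 0. The median was -0.0477, against -0.159 over all genes. Those with the highest coefficients were Akt1s1, a substrate of the mTOR pathway, at 1.67, and Eef2 and Eef1a1, the translocation factor and the tRNA carrier of elongation, at 1.49 and 1.44. The study chose Eef2 and Eef1a1 on these arrays, so they are not independent evidence of a direction. Paip2, an inhibitor of poly(A)-binding protein, had the lowest, -1.20. None passed a limma adjusted p under 0.05, the smallest for the coefficient being 0.169.

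Of 40 symbols of cytosolic tRNA synthetases and their partners, old and current names included, 20 were on the arrays. As deposited 5 (25.0%) lay above 0, against 43.1% of all genes, and 15 below, with 0 called. Farsa, a subunit of phenylalanyl-tRNA synthetase, was below 0 on all 6 arrays, from -0.819 to -0.346, with a mean of -0.582, and its limma p was 0.0167 before and 0.999 after adjustment. Read as Cy5 over Cy3 its mean was -0.123, with an unadjusted limma p of 0.633 and an adjusted p of 0.813. Dye coefficients of the synthetases were below 0 in 14 of 20 (70.0%), near the 65.0% of all genes. Their median was -0.239, against -0.159 over all genes. The 70 cytosolic ribosomal protein genes stood on the other side, with a median coefficient of 0.926 and 64 of 70 above 0. All Cy5 arrays were above both Cy3 arrays in 48 of the 70, against 8.42% of all genes. The reverse order occurred in 0, against 24.4% of all genes. The ribosomal group mean ran from 0.164 to 1.25 on the Cy5 arrays and was -1.41 and -0.641 on the Cy3 arrays. Ribosomal protein genes and most initiation factors thus had dye coefficients of opposite sign on the same slides. Spot intensities were not used here. Of the markers listed for neuroblasts, Gap43 and Tubb3 were on the arrays, and of those for other cells Col1a1, Col1a2 and Vim. Their ratios compare one line with itself and give no level, and 0 of the 5 were called as deposited.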

How the data were processed

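RNA of both transfections was hybridized together on 6 mouse cDNA arrays. The authors labelled it with a tyramide signal amplification kit, read the slides with GenePix Pro and deposited Z-ratios, scores whose SD is 1 over the spots of an array. Not given in the sources used here are tool versions, the scale before transformation and the direction of the ratio, and no intensities were used. Neighbouring spots of a clone were averaged, then the clones of a gene. Current symbols came from a GRCm38.p6 gene table through Entrez IDs, which all 196 member spots had. The test was limma 3.58.1 under R 4.3.3 (lmFit, eBayes, Benjamini-Hochberg over all genes) for genes with values on 4 or more arrays, and dye coefficients came from the same fit with a dye term. Scripts were tested on simulated data. Sign-flip tests were exact and 2-sided. The methods describe 6 replicates from separate batches, while the series text gives 4 biological replicates and 2 flip-dye pairs that are not identified, so p-values may partly measure technical spread. The number of arrays limits the precision. The genes named are all members beginning with Eif2, Eif3 or Eif4, the 8 others with the smallest unadjusted p for the mean or the dye coefficient (the dye p in all 8, so their coefficients describe the choice), and Pabpc1, Etf1 and Gspt1, with clones given for genes that have several. The members and lists were chosen with earlier results of these data known. Alternatives covered direction, dye, the arrays used, flip-dye pairing, centring, scaling, quantile normalization, extreme spots, missing values, the variance model, the summary of clones and leaving out each replicate.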

Additional observations from a re-analysis of the deposited data

Results flagged for a closer look

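In 2 of 44 gene series tested, 1 array lay far from the others, about as many as the 1 in 20 that chance gives: replicate 3 of Eif3j1 at -1.21 and replicate 1 of Eif3k at -2.93. The lowest arrays of Eif3l and Eif5a2 were not flagged by this test. In 8 genes every array with 59Q in Cy5 lay on one side of 0 and every array with 59Q in Cy3 on the other. This was read from the signs of gene means alone, and no single clone of Eif3m, Eif4a1, Eif4e or Eif4g2 showed it. All arrays with 59Q in Cy5 were below 0 in 7 of the 8, 16.7% of the members on 6 arrays against 11.2% of all genes, and above 0 in 1, 2.38% against 5.01%. After centring each array on its median 4 of the 8 kept opposite signs, Eif2s2, Eif4a1, Eif5 and Eef1b2. All Cy5 arrays were then below 0 and both Cy3 arrays above it in 7.14% of the members, against 7.29% of all genes. The reverse held for 2.38%, against 6.13%. The dye coefficient was 1.00 for Eef1b2, and below 0 for the other 7: -0.725 for Eif3m, -0.681 for Eif4a1, -0.676 for Eif3k, -0.603 for Eif5, -0.597 for Eif4e, -0.451 for Eif2s2 and -0.424 for Eif4g2. The difference between orientations was tested by the limma dye term, and none of the 8 passed an adjusted p under 0.05, the smallest being 0.193 for Eef1b2.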

How the results depend on the processing

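No member gene was called under any alternative. The named genes gave 850 values that moved by less than the SD over arrays and 4 that moved further, 3 of them single clones of Eif3a and 1 the mean of Eif2a with replicates 2 and 5 turned, -0.166. Uncalled means changed sign in 12 named genes when replicates 2 and 5 were turned, and in 5 to 11 when 1 replicate was left out. Leaving out 1 replicate gave group means from -0.103 to 0.0841 for eIF2, from -0.358 to -0.166 for eIF3 and from -0.256 to -0.0599 for eIF4. The eIF2, eIF3 and eIF4 dye coefficients stayed below 0 when each replicate was left out. Centring each array on its median moved the eIF2 dye coefficient from -0.348 to -0.269 and that of eIF3 from -0.299 to -0.220. That of eIF4 went from -0.420 to -0.341. The members with a coefficient below 0 numbered 36 to 41 when each replicate was left out. Averaging flip-dye pairs in each of the 12 possible ways left 9 to 13 members above 0. No paired analysis was possible because both RNAs share each array and the flip-dye pairs are not identified. With only 2 arrays in the second dye orientation, dye coefficients rest on few values.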
